A study of Homo sapiens with 18 samples.

Results

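The NDUF genes encode the nuclear subunits of mitochondrial complex I and several of its assembly factors. Members were all protein-coding RefSeq genes on chromosomes 1 to 22 and X whose symbol starts with NDUF, with readthrough genes left out. There were 45 such genes of 19974 protein-coding genes on these chromosomes. The rule uses symbols and no measured value, but the set was proposed with earlier results of these data known. By role they divided into 7 core subunits, 30 accessory subunits and 8 assembly factors. They lay on 22 chromosomes and were short, with a median length of 12562 bp against 24170.5 bp over all protein-coding genes. NDUFAF8, at 2000 bp, was the shortest and NDUFAF6, at 222698 bp, the longest.

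Complex I takes electrons from NADH, passes them to ubiquinone and pumps protons across the inner mitochondrial membrane. Its core subunits carry the flavin, the iron-sulfur clusters and the quinone site. Accessory subunits surround this core and hold it together, and assembly factors build the enzyme but are not part of the finished complex. Colon cancer cells, like most cells, transcribe these genes as housekeeping genes. RNA polymerase II (Pol II) tends to pause just downstream of a gene's start, and serine 2 phosphorylation of its C-terminal domain (Ser2P) is known to build up along the gene towards and past its end. Tyrosine 1 phosphorylation of the same domain (Tyr1P) has been found in human cells mostly near promoters and enhancers.

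The study used chromatin immunoprecipitation and sequencing in HCT116, a human colon cancer line whose INTS11 carries an auxin-inducible degron (INTS11-AID). INTS11 is the RNA-cutting subunit of Integrator, a complex that ends transcription by paused Pol II. The series title names the distribution of Pol II and its phosphorylation after loss of INTS11 as the question. Per the labels, which give 1 text for all samples, cells had no serum for 14 h, IAA (auxin) was used at 500 µM for 1 h and EGF at 100 ng per µl for 30 min, and interferon beta is also listed. That text does not say which library received what, so groups follow the titles.

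For each of Pol II, Tyr1P and Ser2P there were 2 numbered Control and 2 numbered IAA libraries. Another 4 Pol II libraries carried no number, and their labels were Control, IAA, EGF and IAA+EGF. Control cells carried the tagged INTS11 too. For the libraries labelled IAA and EGF the title and the file name give different treatments, so no direction is drawn from them. The labels do not say that numbered libraries came from separate cultures, so their spread may be technical. Lists held 15420 to 99476 peaks in the immunoprecipitated libraries and 1579 and 1004 in the inputs, and depth estimated from the lists was 2.94 to 13.6 fragments per kb. Peak lists cannot show the loss of INTS11, since auxin removes the protein and leaves the gene. The INTS11 gene had an end peak in all 12 Pol II and Tyr1P libraries, in neither Ser2P Control library and in both Ser2P IAA libraries. Of 6 epithelial and intestinal marker genes 5 had a Pol II end peak in all 4 numbered libraries (VIL1 did not), against 0 of 6 markers of other cell types.

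Summits up to 1 kb from a gene's start or far end were counted as end peaks. An interior peak lies more than 1 kb inside both ends, which 44 of the 45 members are long enough to have, NDUFAF8 being the exception. An outside peak lies beyond the gene, up to 5 kb from an end. Gained means that both IAA lists had such a peak and that no Control list did, and lost means the opposite. The share of all protein-coding genes called the same way is given beside each count and is called the background. Where 4 values are listed, they are Control replicates 1 and 2, then IAA replicates 1 and 2. Positions are in bp from the gene start, the outer end of the annotated gene, positive in the direction of transcription. The listed start of NDUFAF1 lies 530 bp and that of NDUFB11 789 bp inside that end. A fold is the authors' own fold enrichment at a summit, and a rank is the peak's place by −log10 q within its own list, as the top percent. Both describe a peak within its list and show no change between lists.

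The start of a gene as annotated did not always mark where Pol II lay. NDUFA5 and NDUFC1 had Pol II summits at a second listed start inside the gene, so the 250 bases before the outer and before the inner start are shown for both. NDUFA5 and the inner starts were chosen after their values were seen. NDUFAF3 is shown because it was called gained at an end for Tyr1P. NDUFB10 and NDUFAF7 are shown as the highest-ranked members called gained inside the gene for Ser2P. The sequences come from the RefSeq promoter table on GRCh38.p14 and run 5′ to 3′ on the gene's strand. Capitals mark matches on either strand to 6 motifs: the NRF1 motif (CATGCGC), the ETS core (CCGGAAG), the GC box (GGGCGG), the CCAAT box (CCAAT), the TATA box (TATAAA) and the YY1 core (ATGGCGG).

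NDUFA5 outer start, chr7:123601652-123601901, minus strand, GC content 41.6%.
NDUFA5 outer: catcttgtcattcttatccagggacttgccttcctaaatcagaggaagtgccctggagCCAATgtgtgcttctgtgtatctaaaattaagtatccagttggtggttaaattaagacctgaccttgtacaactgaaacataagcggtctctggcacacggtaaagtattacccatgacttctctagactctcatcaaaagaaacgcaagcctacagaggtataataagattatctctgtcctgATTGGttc
NDUFA5 inner start, chr7:123557819-123558068, minus strand, GC content 52.8%.
NDUFA5 inner: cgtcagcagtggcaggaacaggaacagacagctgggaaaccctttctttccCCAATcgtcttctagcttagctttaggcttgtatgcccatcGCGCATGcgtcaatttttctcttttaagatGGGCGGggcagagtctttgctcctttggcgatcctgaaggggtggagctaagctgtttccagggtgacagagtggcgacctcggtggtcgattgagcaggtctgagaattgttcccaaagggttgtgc
NDUFC1 outer start, chr4:139302552-139302801, minus strand, GC content 38.8%.
NDUFC1 outer: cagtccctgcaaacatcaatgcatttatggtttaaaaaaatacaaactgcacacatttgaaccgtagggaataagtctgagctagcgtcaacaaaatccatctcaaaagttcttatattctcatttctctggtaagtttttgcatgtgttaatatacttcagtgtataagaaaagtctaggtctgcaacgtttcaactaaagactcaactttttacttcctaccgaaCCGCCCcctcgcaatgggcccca
NDUFC1 inner start, chr4:139301235-139301484, minus strand, GC content 65.2%.
NDUFC1 inner: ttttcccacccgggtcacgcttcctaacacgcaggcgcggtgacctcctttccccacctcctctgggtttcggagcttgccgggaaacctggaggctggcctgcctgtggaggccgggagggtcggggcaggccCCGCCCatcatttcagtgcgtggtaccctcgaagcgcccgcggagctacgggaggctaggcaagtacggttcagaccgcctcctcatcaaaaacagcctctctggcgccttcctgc
NDUFAF3, chr3:49020202-49020451, plus strand, GC content 55.6%.
NDUFAF3: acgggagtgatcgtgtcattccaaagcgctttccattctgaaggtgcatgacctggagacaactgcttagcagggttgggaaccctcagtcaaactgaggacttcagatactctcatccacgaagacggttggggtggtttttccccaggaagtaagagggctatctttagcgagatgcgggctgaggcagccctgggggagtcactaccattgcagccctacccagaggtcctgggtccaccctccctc
NDUFB10, chr16:1959288-1959537, plus strand, GC content 69.6%.
NDUFB10: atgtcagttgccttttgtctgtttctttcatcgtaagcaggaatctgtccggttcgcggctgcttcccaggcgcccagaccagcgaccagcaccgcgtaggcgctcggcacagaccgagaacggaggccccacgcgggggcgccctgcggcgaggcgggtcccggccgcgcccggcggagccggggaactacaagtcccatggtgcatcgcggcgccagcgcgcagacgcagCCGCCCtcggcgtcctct
NDUFAF7, chr2:37231408-37231657, plus strand, GC content 58%.
NDUFAF7: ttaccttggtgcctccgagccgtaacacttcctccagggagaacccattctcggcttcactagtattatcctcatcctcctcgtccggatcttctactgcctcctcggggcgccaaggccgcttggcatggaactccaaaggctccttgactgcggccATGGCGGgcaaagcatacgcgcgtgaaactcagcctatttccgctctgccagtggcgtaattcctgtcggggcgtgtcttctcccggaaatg

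The inner NDUFA5 window held a CCAAT box at -199, an NRF1 motif at -158 and a GC box at -128, counted from the start. The outer window held CCAAT boxes at -192 and -8. In NDUFC1 each window held 1 GC box, at -116 before the inner and at -23 before the outer start. NDUFB10 had a GC box at -18 and NDUFAF7 a YY1 core at -92, and none of the 6 motifs was found in the NDUFAF3 window.

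A start was listed for 39 members and for 15813 genes in all. NDUFS5, NDUFC2, NDUFB5, NDUFAF6 and NDUFB9 were among those with no entry. Median GC content of the 250 bases was 60.8% in the members and 62% over all genes. NRF1 motifs were found in 4 members (NDUFA6, NDUFB4, NDUFS6 and NDUFS7), 10.3% against 5.07% of all genes. YY1 cores were found in 4 members (NDUFA13, NDUFA7, NDUFAF7 and NDUFS8), 10.3% against 3.08%. NRF1 and YY1 are factors known to act at promoters of respiratory chain genes. ETS cores were found in 15.4% of members against 11.7% of all genes, GC boxes in 56.4% against 55.8%, CCAAT boxes in 25.6% against 34.4% and TATA boxes in 7.69% against 9.36%. A match is a description of these letters and not a site of binding.

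Most NDUF genes had Pol II at an end whatever the treatment. An end peak was present in all 16 immunoprecipitated libraries for 28 members and in at least 15 for 39, and over all genes 37.5% had one in all 16. NDUFA5 had none in any. The inputs had no end peak at a member. Pol II end peaks were found at 41, 42, 42 and 43 of the 45 members, against 57.9%, 59.6%, 50.7% and 55.7% of all genes. The members' counts were thus nearly level while the share over all genes was lower with IAA. The Pol II lists held 22898, 27929, 18263 and 23609 peaks, and the part of list length in these shares was not tested. A Pol II end peak in all 4 numbered libraries was present in 40 members, 88.9%, with a background of 48.8%.

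**Figure D1:**
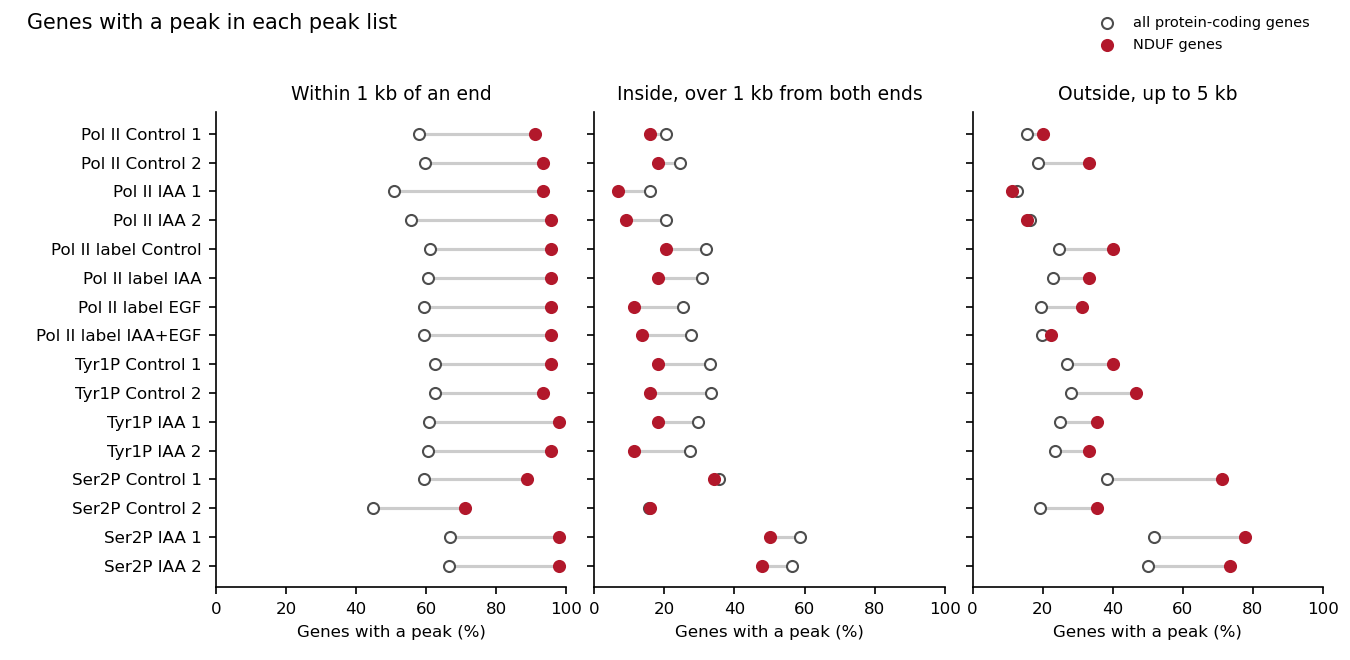
Percent of NDUF genes (filled) and of all protein-coding genes (open) with a peak at an end, in the interior and outside in each of the 16 immunoprecipitated lists; libraries without a number are marked by their label. NDUF genes lie to the right of all genes at the ends in every list, from 32 members in Ser2P Control replicate 2 to 44 in both Ser2P IAA lists.

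The 7 core subunits had an end peak in all 4 numbered libraries in 5 cases for Pol II, in 7 for Tyr1P and in 6 for Ser2P. NDUFS8, of the arm of the enzyme that hands electrons to ubiquinone, had Pol II summits at 81, 59 and 124 bp and no end peak in IAA replicate 1. Its folds were 9.09, 5.72 and 3.13, so the IAA list held it only weakly. For Tyr1P it was present in all 4, with folds of 7.49, 7.48, 3.18 and 3.4.

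The 30 accessory subunits had an end peak in all 4 numbered libraries in 28 cases for Pol II, 27 for Tyr1P and 20 for Ser2P. For the 8 assembly factors the counts were 7, 7 and 5. Tyr1P end peaks were found at 43, 42, 44 and 43 members, against 62.4%, 62.4%, 60.8% and 60.4% of all genes, and in all 4 libraries at 41 members, 91.1% with a background of 58.1%. Ser2P end peaks were found at 40, 32, 44 and 44 members, against 59.5%, 44.8%, 66.8% and 66.4% of all genes. Here Control replicate 2 was lowest for the members and for all genes, and it had the shortest list. With the 4 lists reduced to equal length, the IAA minus Control difference in members was 3 in place of 8. Ser2P end peaks in all 4 libraries were present at 31 members, 68.9% with a background of 44%.

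Pol II and Tyr1P end peaks of NDUF genes also ranked high within their lists. The members' median best Pol II end peak lay in the top 22.5%, 16.7%, 16.1% and 10.9% of its list, and the median over all genes with an end peak in the top 27.5%, 23.4%, 31.5% and 26.7%. For Tyr1P the members' medians were 13%, 13.2%, 10% and 10.5% against 17.2%, 17.6%, 19.7% and 21%. For Ser2P the members' medians were 16.8%, 45%, 8.33% and 9.03% against 20.2%, 37.4%, 8.16% and 8.82%. The Ser2P medians were thus close to those of all genes with IAA, and the members ranked lower than all genes in Control replicate 2. NDUFB9, an accessory subunit of the membrane arm, had the highest-ranked Pol II end peak. It was in the top 0.738%, 0.623%, 0.312% and 0.127% of its lists, with folds of 19.5, 19, 19.3 and 21.5. NDUFB9 was also first for Tyr1P, in the top 0.345%, 0.341%, 0.614% and 0.578%. MTSS1 and TATDN1 each have an end within 1 kb of an end of NDUFB9, so this peak cannot be assigned to 1 gene.

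NDUFB1, another membrane arm subunit, came second for Pol II, in the top 6.38%, 3.87%, 0.964% and 0.657%, and it shares its start region with CPSF2. NDUFA12, in the NADH-oxidising arm, came next, in the top 5.26%, 8.11%, 0.739% and 0.58%, with no neighbour's end within 1 kb. Its Tyr1P peak was in the top 2.8%, 3.86%, 0.895% and 0.89%. NDUFS5 followed for Tyr1P, in the top 1.7%, 1.73%, 2.34% and 3.75%. Lowest for Pol II were NDUFB3 (47.7%, 44.4%, 90.4% and 41.2%) and NDUFA10 (24.5%, 27.2%, 74% and 62.4%). Among the lowest for Tyr1P was NDUFS8 (29.2%, 29%, 52% and 46.3%).

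For Ser2P, 2 of the 3 highest-ranked end peaks lay where a neighbour has an end. NDUFA7, an accessory subunit, was in the top 0.174%, 0.603%, 0.299% and 0.174%, with the summit at 13128, 13117, 13151 and 13152 bp. These summits are at its far end, where CD320 has an end, and a further neighbour, RPS28, has an end at the NDUFA7 start. NDUFB2 was in the top 1.22%, 3.96%, 0.179% and 0.24%, with summits at its own start, at 77, 64, 51 and 61 bp. NDUFB6 was in the top 1.71%, 3.06%, 1.19% and 1.35%, with summits at 20734, 20734, 20752 and 20740 bp, at the end it shares with TOPORS. Lowest were NDUFA9 (37.5%, 97.4%, 29% and 21.1%) and NDUFB5 (53.8%, 63%, 11.5% and 9.25%). In all, 28 members have a neighbour's end within 1 kb of one of their ends, and 18 of them at the gene start.

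**Figure D2:**
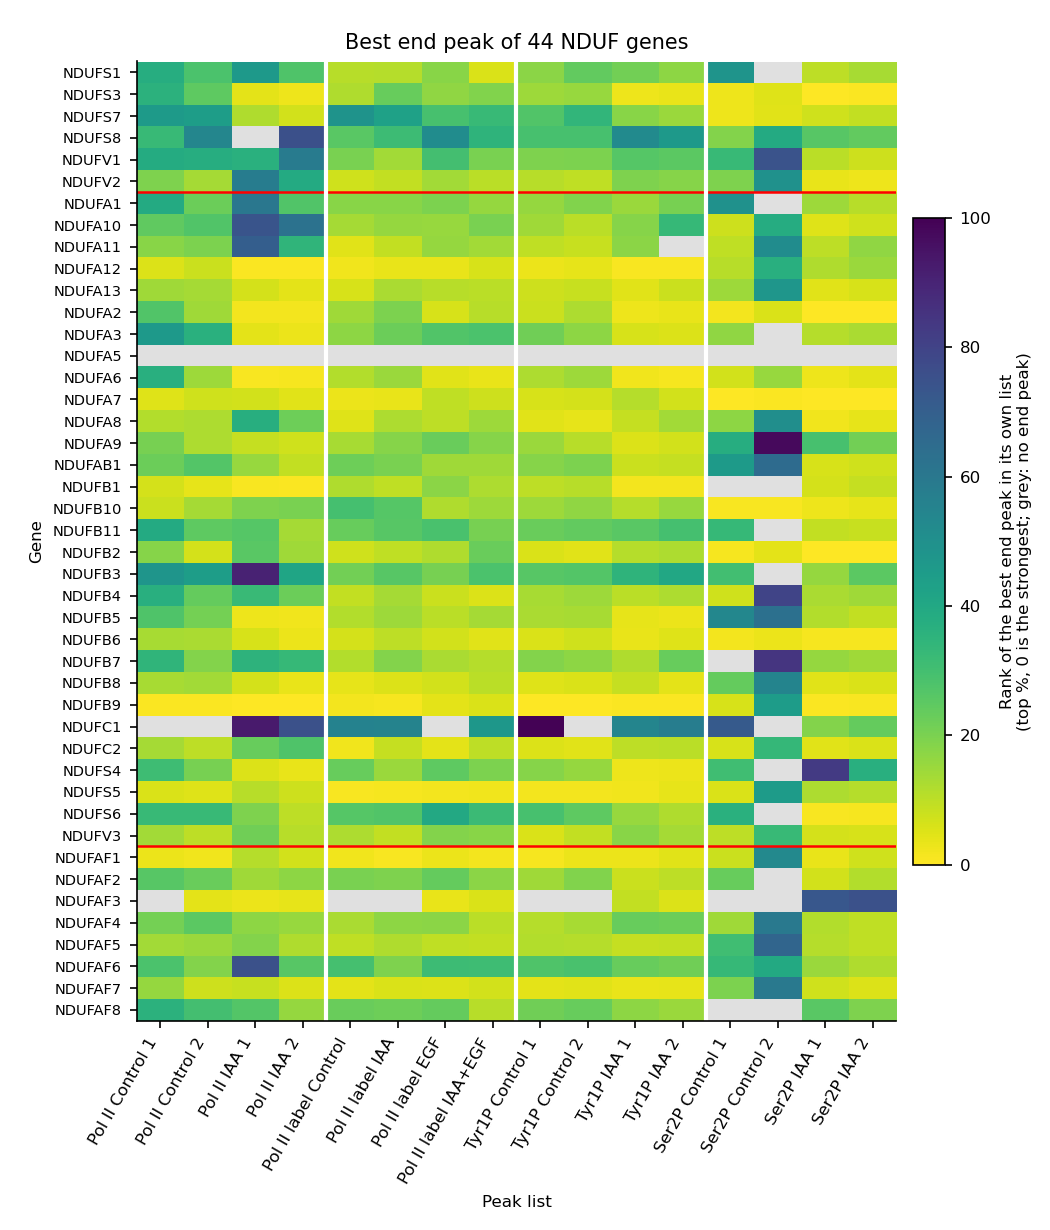
Rank of the best end peak of 44 NDUF genes (rows) in each of the 16 immunoprecipitated lists (columns), as the top percent of its own list, from yellow for the highest ranks to dark for the lowest and grey where no end peak was called; red lines divide core subunits, accessory subunits and assembly factors. NDUFB9 is in the top 1% of all 8 numbered Pol II and Tyr1P lists, and NDUFA5 is grey throughout.

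Few members were called gained or lost at an end with IAA. For Pol II NDUFC1 was gained, with a background of 0.34%, and 0 members were lost, with a background of 3.02%. For Tyr1P NDUFAF3 was gained, with a background of 0.421%, and 0 were lost, with a background of 1.48%. For Ser2P NDUFB1, NDUFAF8 and NDUFAF3 were gained, 6.67% of members with a background of 6.69%, and 0 were lost, with a background of 0.17%. The Ser2P share is close to that of all genes, but its count of 3 was 12 without Control replicate 1, 6 with a 500 bp window and 1 with a 2 kb window. The share over all genes was not counted at these settings. Each Pol II and Tyr1P call rests on 1 gene, described next.

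NDUFC1, a small membrane arm subunit (chr4:139289917-139302551), was gained only through a weak peak near its outer start. Its stronger Pol II summits were interior. One lay at 1330, 1349, 1364 and 1389 bp, with folds of 16.1, 14.9, 10.4 and 10.7. Inner starts are listed at 1317 and 1341 bp, so the first summit was at or just past these starts, whose sequence is shown above. Another lay at 6763, 6801, 6795 and 6838 bp, with folds of 12.7, 13.1, 11 and 12.8. The end peak that made the call lay at 356 and 313 bp in the IAA lists, with folds of 3.25 and 3.33. It was also called in the libraries labelled Control (287 bp), IAA (266 bp) and IAA+EGF (271 bp), but not in that labelled EGF. The Tyr1P summit at the inner starts was at 1345, 1347, 1358 and 1353 bp. NAA15 has an end within 1 kb of the summits at the inner starts, so these peaks cannot be assigned to 1 gene.

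NDUFAF3, a factor for the quinone-binding arm (chr3:49020452-49023495), was called gained because its summit lies at the 1 kb limit. Pol II summits were at 1018, 992, 960 and 982 bp, and Tyr1P summits at 1018, 1025, 994 and 995 bp. The Tyr1P Control summits fell on the interior side and the IAA summits on the end side. Accordingly NDUFAF3 was called lost in the interior for the same antibody. Other listed starts of the gene are at 632, 1198 and 1669 bp, and IMPDH2 has an end within 1 kb of the far end. DALRD3 has an end 28 to 41 bp from the NDUFAF3 summits that lay between 1012 and 1025 bp, so these peaks cannot be assigned to 1 gene. Its peaks were among the strongest, with 163 to 440 stacked fragments, near the highest stack in some lists, and summits there are less certain. For Ser2P weak peaks with folds of 1.57 and 1.51 were called at 913 and 829 bp in the IAA lists only, beside upstream peaks in all 4 (-1872, -1896, -1947 and -2013 bp).

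NDUFB1 (chr14:92116123-92121706) had Ser2P start peaks in the IAA lists only, at 85 and 107 bp with folds of 11.1 and 9.68. Further IAA peaks lay upstream at -460 and -439 bp. Both Control lists held peaks past the gene, at 7703 and 7064 bp in replicate 1 and 6888 bp in replicate 2. NDUFAF8 (chr17:81239311-81241310), an assembly factor that shares its start with TEPSIN, had IAA summits at 153 and 224 bp at the start and 2559 and 2591 bp at the far end. Its Control peaks lay farther downstream, from 4068 to 5305 bp. NDUFB7, a membrane arm subunit, had Ser2P start peaks at 75 and 87 bp with IAA, with folds of 4.97 and 5.19. Neither NDUFB7 Control list had a start peak, and replicate 2 had a far-end peak at 6664 bp.

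Counted at the gene start alone, Ser2P peaks were found at 32, 22, 36 and 36 of the 39 members with a listed start, against 57.1%, 41.9%, 63.8% and 63.6% of all genes. NDUFB1, NDUFAF8, NDUFB7 and NDUFAF3 were gained there, 10.3% of members with a background of 6.46%. All 4 are genes under 10 kb, 23.5% of the 17 members of that length with a listed start, with a background of 8.4%. NDUFAF3 counts there through the weak peaks given above. How these start calls change with the window or with list length was not tested. At the far end Ser2P peaks were found at 14, 9, 18 and 17 members, against 21.2%, 11.1%, 27.4% and 26.2% of all genes. NDUFB1, NDUFAF8 and NDUFS6 were gained at the far end, with a background of 8.09%, and NDUFAF4 was lost, with a background of 0.904%. For Pol II NDUFB4 was lost at the far end, with a background of 1.06%, and for Tyr1P NDUFS3 and NDUFA6 were lost there, with a background of 2.02%.

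Outside the genes, up to 5 kb away, Ser2P peaks were found at 32, 16, 35 and 33 of 45 members, against 38.3%, 19.3%, 51.7% and 50% of all genes. For Pol II the counts were 9, 15, 5 and 7, against 15.6%, 18.6%, 12.6% and 16.5% of all genes, and for Tyr1P 18, 21, 16 and 15, against 26.8%, 28.2%, 24.8% and 23.5%. A downstream Ser2P peak was found at 26, 10, 27 and 25 of 39 members, against 32.5%, 15.9%, 44.1% and 42.9% of all genes. It was present in all 4 libraries for 9 members, 23.1% with a background of 13.8%. NDUFA7, NDUFAF7 and NDUFAF5 were gained downstream, 7.69% with a background of 11.7%.

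Inside the gene bodies, the IAA libraries of Ser2P held the most peaks. Ser2P interior peaks were found in 15, 7, 22 and 21 of 44 members, a mean of 11 in Control and 21.5 with IAA, against 35.6%, 15.5%, 58.6% and 56.3% of all genes. The 2 IAA libraries lay above the 2 Control libraries, and a two-sided exact permutation test of 2 libraries against 2 cannot go below p = 0.333, so no test was made. The Ser2P lists themselves held 37442, 15420, 99476 and 88987 peaks, a difference in length that was not separated from treatment. With the 4 lists reduced to equal length, the difference of 10.5 members turned to -0.5. Ser2P interior peaks numbered 32 and 10 in the Control lists and 106 and 88 with IAA, and of these 29, 9, 102 and 84 lay near neither another listed start nor another gene's end. Per 100 kb of interior the members had 2.59, 0.808, 8.57 and 7.11 peaks, against 1.05, 0.299, 4.59 and 4 over all genes. These rates pool all interiors, so members with many peaks weigh most, with IAA above all NDUFAF6. The share of members with an interior peak was not above that of all genes with IAA, at 22 and 21 of 44 against 58.6% and 56.3%.

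Pol II interior peaks were found in 7, 8, 3 and 4 of 44 members, against 20.5%, 24.4%, 15.9% and 20.5% of all genes. Under 10 kb it was 1, 1, 0 and 0 of 17 members, against 7.21%, 8.75%, 4.42% and 6.62% of such genes. From 10 to 30 kb it was 2, 3, 1 and 1 of 16, against 16.3%, 19.8%, 11.7% and 15.6%. Over 30 kb it was 4, 4, 2 and 3 of 11, against 29.7%, 35.1%, 24.4% and 30.4%. Tyr1P interior peaks were found in 8, 7, 8 and 5 of 44 members, against 33.1%, 33.3%, 29.6% and 27.4% of all genes. Under 10 kb it was 1, 1, 1 and 0 of 17 members, against 11.6%, 12%, 9.68% and 8.98% of such genes. From 10 to 30 kb it was 3, 2, 3 and 2 of 16, against 28.4%, 29.4%, 24.6% and 22.4%. Over 30 kb it was 4, 4, 4 and 3 of 11, against 46.9%, 46.5%, 42.7% and 39.6%. For Pol II 0 members were gained inside, with a background of 0.742%, and NDUFA11 and NDUFAF3 were lost, 4.55% with a background of 2.69%. For Tyr1P 0 were gained, with a background of 0.908%, and NDUFAF3 was lost, 2.27% with a background of 3.19%. A Pol II interior peak in all 4 libraries was found in NDUFC1, NDUFA5 and NDUFAF6, 6.82% with a background of 12.6%. A Tyr1P interior peak in all 4 was found in these and in NDUFA11 and NDUFS4, 11.4% with a background of 22.2%. These backgrounds over all genes are not matched for length, and the members are shorter by median.

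Ser2P interior peaks were called gained in 7 members, NDUFB10, NDUFAF7, NDUFAB1, NDUFAF2, NDUFAF1, NDUFB6 and NDUFS6, in order of rank. That is 15.9% of 44, with a background of 19.8%, and 0 were lost, with a background of 0.155%. With lists of equal length 2 members were gained, a count for which no background was made. Among members with no interior peak in either Control list the share gained was 24.1%, with a background of 31%. Among members with a Pol II end peak in both Control libraries it was 17.5%, with a background of 26.1%. By length it was 1 of 17 members under 10 kb, with a background of 8.64%, 4 of 16 from 10 to 30 kb, 25% with a background of 23%, and 2 of 11 over 30 kb, 18.2% with a background of 23.3%. Of these shares only that of 10 to 30 kb was above its background, by 2 percentage points. No core subunit was among the 7, which were 4 accessory subunits and 3 assembly factors. A Ser2P interior peak in all 4 libraries was present in NDUFA11, NDUFS1, NDUFB5, NDUFC1, NDUFS4, NDUFAF6 and NDUFA8, 15.9% with a background of 14.6%.

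NDUFB10, a membrane arm subunit (chr16:1959538-1961975), ranked highest of the 7, in the top 4.28% and 5.46% of the IAA lists. Its interior summits lay at 1293 and 1270 bp, with folds of 3.96 and 3.57. All 4 Ser2P lists had a far-end peak, at 2143, 2115, 2138 and 2115 bp, where RPS2, a ribosomal protein gene, has its end. In a gene this short the interior is a narrow middle zone. The best Ser2P end peak of NDUFB10 measured 2052, 1443, 609 and 622 bp, so 1 broad Control peak stood where the IAA lists had separate ones. Pol II summits at the NDUFB10 start were at 75, 82, 113 and 86 bp.

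The other 6 had weaker and more scattered peaks. NDUFAF7, a methyltransferase that acts in assembly (chr2:37231658-37271365), had them at 29920 and 34819 bp in IAA replicate 1 and at 25879, 29956 and 34977 bp in replicate 2. The summits at 29920 and 29956 bp, and those at 34819 and 34977 bp, lay close together. NDUFAF2, a relative of NDUFA12 that acts late in assembly, had 4 and 5 interior peaks over 207822 bp, 2 of which recurred, at 16155 and 16255 bp and at 107251 and 107256 bp. NDUFAF1, known from the complex that builds the membrane arm, had interior summits at 12391 and 9661 bp and at 12353 bp. NDUFAB1, the mitochondrial acyl carrier protein, had 1 at 13489 bp in replicate 1 and 3 at 13225, 10171 and 1787 bp in replicate 2. NDUFB6 had summits at 11609 and 6316 bp and at 14798 and 6161 bp, those at 6316 and 6161 bp near SMIM27. NDUFS6, at the NADH-oxidising arm, had them at 6559 and 8940 bp and at 6416 bp.

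NDUFAF6, the longest member, had 6, 2, 24 and 17 interior Ser2P peaks, with positions counted from its lower-coordinate end because no start is listed. A summit close to TP53INP1 was called at 53763, 53756, 53786 and 53807 bp. Another was called at 129241, 129206, 129312 and 129286 bp, and its fold was 9.92, 6.95, 15.1 and 15.1. Its Ser2P end peak measured 736, 577, 2274 and 2177 bp. NDUFA11, a membrane arm subunit, had a Ser2P interior peak in all 4 lists at 11147, 11212, 11135 and 11101 bp. Its Pol II interior peaks in Control lay at 11360 and 11006 bp in replicate 1 and at 11163 bp in replicate 2, and none was called inside with IAA. In IAA replicate 2 a Pol II summit at 11618 bp fell just on the end side of the 1 kb limit.

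NDUFA5, an accessory subunit of the quinone-binding arm (chr7:123536997-123601651), had no end peak, and its peaks lay deep inside the gene or past its far end. Downstream Pol II summits were called at 68603, 68621, 68607 and 68653 bp, with a further one at 66751 bp in Control replicate 1. An inner start is listed 43833 bp from the outer one. Pol II summits of NDUFA5 lay at 43884, 43881, 43934 and 43947 bp, which is 51, 48, 101 and 114 bp past the inner start. Folds were 9, 12, 15 and 21.6. The numbered Control summits were therefore about where the median member had its Pol II summit at its own start, and the numbered IAA summits were farther in. In the libraries without a number the summit lay 57 bp past the inner start with the label Control and 198 bp before it with IAA. With the labels EGF and IAA+EGF it lay 48 and 41 bp past that start. Tyr1P summits lay 215 and 214 bp before the inner start in Control, and 126 and 113 bp past it with IAA. Further summits inside NDUFA5, far from either start shown, were called for Pol II at 20624 and 20498 bp in the IAA lists and at 20576 bp in the library labelled Control, and for Tyr1P at 20531 and 20475 bp in the IAA lists. Ser2P had a summit 60 bp past the inner start in Control replicate 1, none in replicate 2, and 70 and 142 bp with IAA.

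**Figure D3:**
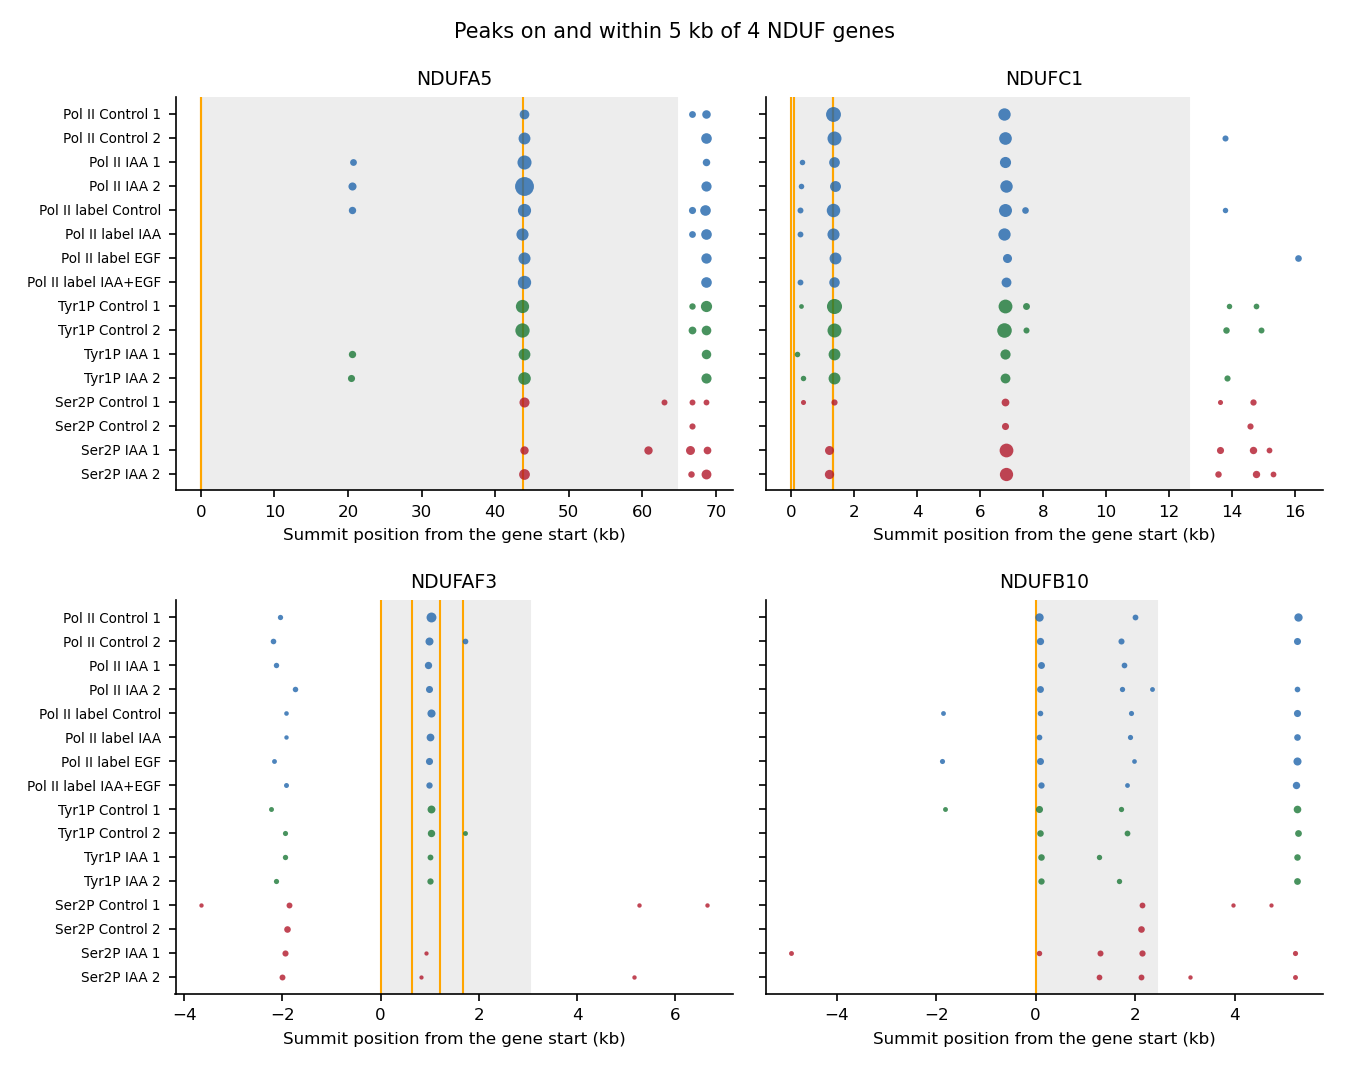
Position of each summit in kb from the outer gene start, by list, on and within 5 kb of NDUFA5, NDUFC1, NDUFAF3 and NDUFB10, with the gene body shaded. Every Pol II list holds an NDUFA5 summit between 43635 and 43947 bp, and the 2 Ser2P IAA lists hold interior summits of NDUFB10 at 1293 and 1270 bp.

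Pol II summits at the start lay farther into the gene with IAA. The members' median summit was at 56, 55, 98.5 and 116 bp, against 51, 52, 91 and 99 bp over all genes. Tyr1P medians were 49, 49, 96 and 99.5 bp, against 47, 49, 81 and 86 bp. Both antibodies had IAA lists above both Control lists, in members and in all genes alike. Ser2P medians were 56, 33, 74.5 and 61 bp, against 42, 35, 57 and 60 bp. In the unnumbered Pol II libraries the members' medians were 38 bp with the label Control, 43 bp with IAA, 72.5 bp with EGF and 74 bp with IAA+EGF, against 41, 45, 73 and 69 bp over all genes.

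Gene by gene, 33 members had a Pol II start peak in all 4 numbered libraries. Both IAA summits were downstream of both Control summits in 22, 66.7% with a background of 47.7%, and upstream of both in 6, 18.2% with a background of 23.4%. The median mean position was 55.5 bp in Control and 100 bp with IAA in the members, and 50 and 93.5 bp over all genes. For Tyr1P it was 18 of 33 downstream, 54.5% with a background of 47.3%, and 4 upstream, 12.1% with a background of 21.9%. For Ser2P it was 6 of 18 downstream, 33.3% with a background of 30.1%, and 4 upstream, 22.2% with a background of 16.3%. Genes in general moved the same way, and whether the members differ from them was not tested.

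NDUFB8, a membrane arm subunit with no neighbouring end, had Pol II summits at 80, 88, 119 and 128 bp. NDUFA6 had them at 64, 83, 135 and 161 bp, NDUFA3 at 56, 55, 134 and 126 bp and NDUFAB1 at 69, 79, 113 and 120 bp. In these 4 genes, chosen after their values were seen, the mean IAA summit was 39.5 to 74.5 bp farther in. For Tyr1P NDUFS3, a core subunit, had 31, 31, 94 and 108 bp, and NDUFA9 had 34, 37, 121 and 97 bp. Larger steps were seen where 2 peaks near a start traded places as the best one, and in each of the next 4 genes at least 1 list held both. NDUFS7, a core subunit, had its best Pol II summit at -474, -415, 103 and 116 bp, and NDUFV3 at -299, -268, 101 and 99 bp. NDUFB11, next to RBM10, had 195, 198, 873 and 904 bp, and NDUFAF8 had 89, 75, -361 and -363 bp. NDUFS7, NDUFV3 and NDUFB11 are among the 22 members counted above as downstream, and NDUFAF8 among the 6 upstream. The 22 also hold NDUFB3, NDUFB4 and NDUFA1, whose Control summits lay on either side of the start. The listed start of NDUFB11 is at 789 bp, downstream of its Control summits and upstream of its IAA summits.

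The members were then read by the side of the gene start on which both Control summits lay. NDUFB11 counts as downstream for Pol II and Tyr1P, although its Control summits lay upstream of its listed start. Of 20 members with both Pol II Control summits downstream, 15 had both IAA summits farther downstream, 75% with a background of 57.3%. Of 7 with both upstream, 4 had them farther upstream, 57.1% with a background of 45.6%. These were NDUFB1 (-334, -336, -366 and -391 bp), NDUFAF7 (-117, -93, -224 and -178 bp), NDUFAF5 (-187, -165, -234 and -259 bp) and NDUFA10. NDUFB1, NDUFAF7 and NDUFAF5 have another gene's end, of CPSF2, CEBPZ and ESF1, within 1 kb of the start, so that a summit upstream of the one can lie within the other. For Tyr1P it was 14 of 23 downstream, 60.9% with a background of 57.7%, and 4 of 9 upstream, 44.4% with a background of 44.2%. For Ser2P it was 2 of 9 downstream, 22.2% with a background of 25.6%, and 1 of 5 upstream, 20% with a background of 16.9%.

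**Figure D4:**
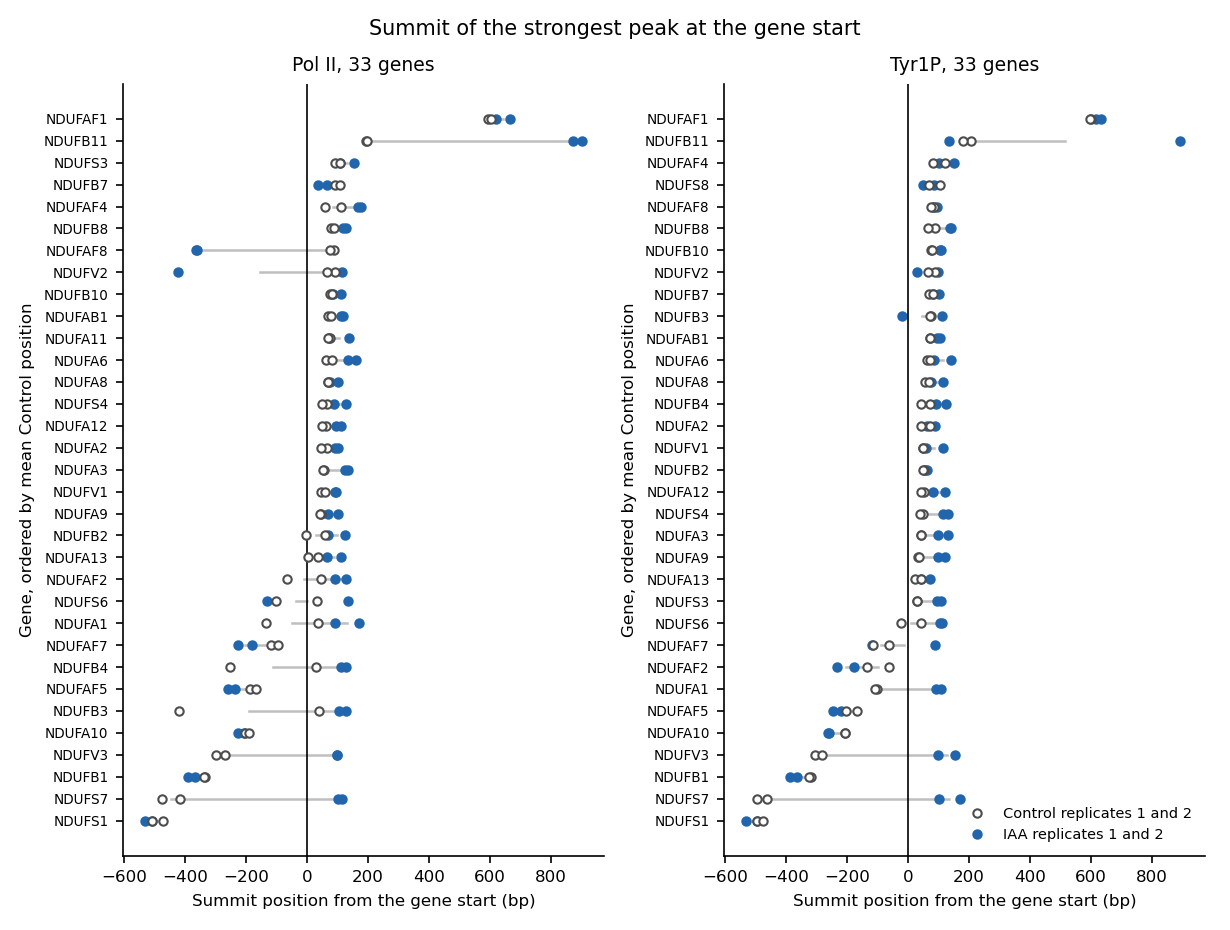
Summit of the best peak at the gene start, in bp from the outer end of the gene, for each of the 33 NDUF genes with one in all 4 libraries, for Pol II and Tyr1P, ordered by mean Control position; open points are the 2 Control libraries, filled points the 2 IAA libraries, and the line joins their means. For Pol II 22 genes have both filled points to the right of both open ones.

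Per library, the median width of the members' best Pol II end peaks was 558, 544, 472 and 661 bp, so the IAA libraries lay on either side of Control. The medians over all genes were 544, 549, 410 and 510 bp. Among genes with an end peak in all 4 numbered Pol II libraries the median mean width was 549 bp in Control and 591 bp with IAA in 40 members, and 569 and 490 bp over all genes. Both IAA peaks were wider than both Control peaks in 13 members, 32.5% with a background of 23.7%, and narrower in 4, 10% with a background of 31.3%. For Tyr1P it was 20 of 41 wider, 48.8% with a background of 27.6%, and 6 narrower, 14.6% with a background of 34.5%, with medians of 722 and 782 bp against 774 and 739 bp. For Ser2P it was 17 of 31 wider, 54.8% with a background of 68.2%, and 2 narrower, NDUFB10 and NDUFB6, 6.45% with a background of 5.21%. Ser2P medians were 656 and 730 bp against 586 and 895 bp. A called width also moves with depth, and the lowest depth was in Pol II Control replicate 1. Its part in these counts was not tested.

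NDUFA9, an accessory subunit of the quinone-binding arm, had Pol II widths of 411, 474, 747 and 909 bp. NDUFS6 had 471, 467, 890 and 711 bp. NDUFAF5, an assembly factor known to modify a core subunit, had Tyr1P widths of 671, 691, 1065 and 1186 bp. The 4 members narrower for Pol II were NDUFS1 (941, 862, 298 and 493 bp), NDUFV1 (588, 589, 298 and 390 bp), NDUFV3 (715, 684, 347 and 429 bp) and NDUFB9 (542, 542, 515 and 538 bp). NDUFS1 shares its start with EEF1B2 and NDUFV3 with WDR4.

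**Figure D5:**
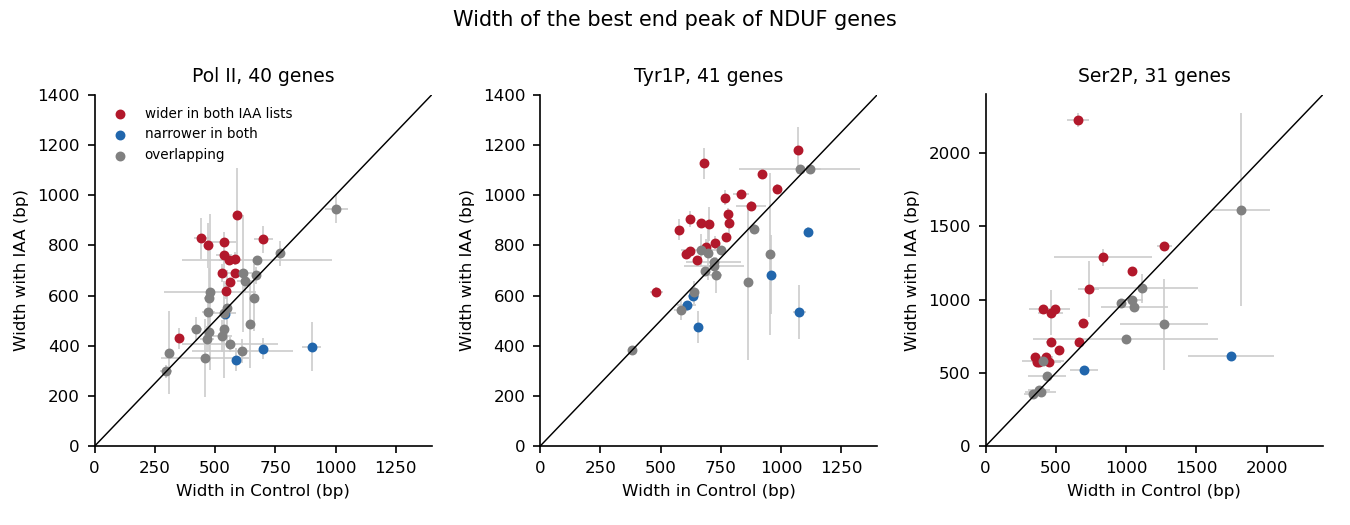
Width of the best end peak of each NDUF gene in bp, mean of the 2 Control libraries (x axis) against mean of the 2 IAA libraries (y axis), one panel per antibody, with bars from the lower to the higher library and the diagonal marking equal width. Most Pol II and Tyr1P points that separate lie above the diagonal, 13 against 4 and 20 against 6.

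In the unnumbered Pol II libraries 43 members had an end peak in each list, against 61.2% of all genes with the label Control, 60.6% with IAA, 59.4% with EGF and 59.4% with IAA+EGF. Each was set against the library labelled Control, with 1 library each and no replicate check. With the label IAA 0 members were gained (background 1.01%) and 0 lost (background 1.62%). With the label EGF NDUFAF3 was gained (background 0.826%) and NDUFC1 lost (background 2.63%). With the label IAA+EGF NDUFAF3 was gained (background 0.901%), and the background of lost end peaks was 2.72%. NDUFAF3 summits in these 4 libraries were at 1016, 1012, 985 and 980 bp, again on either side of the 1 kb limit. Interior peaks were found in 9, 8, 5 and 6 members, against 32%, 30.7%, 25.4% and 27.5% of all genes.

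Other genes of complex I assembly and the respiratory chain were counted the same way. Of 12 complex I assembly genes without an NDUF symbol, all 12 had a Pol II and a Tyr1P end peak in all 4 numbered libraries and 10 a Ser2P end peak. The backgrounds were 48.8% for Pol II, 58.1% for Tyr1P and 44% for Ser2P. None of the 12 was gained or lost at an end for any of the 3 antibodies. NUBPL, which delivers iron-sulfur clusters to complex I, ECSIT and TIMMDC1 were gained inside for Ser2P, with a background of 19.8%. Of 40 nuclear genes of complexes II to V, 37 had a Pol II end peak in all 4 libraries, 38 a Tyr1P and 25 a Ser2P end peak, with the same backgrounds. At an end ATP5F1D, an ATP synthase subunit, was lost for Pol II, with a background of 3.02%. UQCRC2 and UQCR11, of complex III, were gained there for Ser2P, with a background of 6.69%. Inside the gene Ser2P was gained in 8 of 38 of the genes of complexes II to V, 21.1% with the background of 19.8% given above, among them SDHA, SDHB and SDHD of succinate dehydrogenase. It was lost inside in CYC1, with a background of 0.155%.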

How the data were processed

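Peak lists of 18 libraries (16 immunoprecipitated, 2 input) were used. The submitters' processing notes name MACS2 2.2.7.1, deepTools 3.5.1, Bowtie2 2.3.4.1, Trim Galore 0.6.6, Picard 2.25.7 and build hg38. Options, and whether inputs served as control, are not stated there. The authors deposited 1 list per library, each peak with its fold enrichment, −log10 p and −log10 q, score and summit offset. These deposited values were read within a list only. The lowest deposited −log10 q was 1.31.

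Peaks elsewhere than chromosomes 1 to 22 and X, and those sharing 1 bp or more with an input peak, were left out (0.478% to 3.04% of a list). Depth and stacked fragments were solved from the deposited fold and p. Genes were RefSeq on GRCh38.p14, and starts and strands came from its promoter table for 39 members. Each Control and IAA group had 2 libraries, and counts over members were compared with those over all genes, without a test. Members, lists and the rule for named genes (those gained or lost, the 3 highest and 2 lowest ranked per antibody, those without an end peak, the shortest and longest, NDUFAF3 and NDUFB10) were chosen with earlier results of these data known. Examples of summit positions and widths were chosen after their values were seen. Scripts (Python 3.11.15, pandas 2.3.3, numpy 2.4.6, scipy 1.17.1, matplotlib 3.10.9) were tested on simulated data. Values of 1 member are not reported here; it is included in the counts.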

Additional observations from a re-analysis of the deposited data

Results flagged for a closer look

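The number of NDUF genes with an interior peak moved in opposite directions for Ser2P and Pol II. Both Ser2P IAA libraries (22 and 21 members) lay above both Control libraries (15 and 7), and both Pol II IAA libraries (3 and 4) lay below both Control libraries (7 and 8). The IAA minus Control difference was 14.5 members larger for Ser2P than for Pol II. This difference was not tested. Mean shares over all genes moved the same ways, from 25.6% to 57.5% for Ser2P and from 22.4% to 18.2% for Pol II. By library the Pol II shares met, at 20.5% and 24.4% in Control and 15.9% and 20.5% with IAA. The Pol II lists held 22898 and 27929 peaks in Control and 18263 and 23609 with IAA. NDUFAF3, called lost inside for Pol II, had IAA summits just on the end side of the 1 kb limit. Its interior Control summits were at 1018 bp in replicate 1 and at 1718 bp in replicate 2. In Control replicate 2 its summit near 1 kb was, like those with IAA, on the end side. NDUFA11 had a Pol II summit just on the end side in IAA replicate 2. With lists of equal length the Ser2P difference was -0.5 members in place of 10.5.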

How the results depend on the processing

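No paired analysis was possible because the results come from no test. Of the alternatives to the reported settings, 151 values stayed within the spread between replicates or within 1.5 times a count, 28 moved and 1 reversed. The reversal was the Ser2P interior difference, 10.5 members as reported and -0.5 with lists of equal length. Only members were counted under the alternatives, so the counts below have no background from all genes beside them. Lists of equal length also gave 2 members gained inside for Ser2P in place of 7, 2 lost inside and 2 lost at an end for Ser2P in place of 0, and 2 gained at an end for Tyr1P in place of 1. With a 2 kb window the IAA minus Control difference in members with an end peak was -1 for Pol II and 0 for Tyr1P in place of 1, and members gained at an end were 0 for Pol II, 0 for Tyr1P and 1 for Ser2P. A 500 bp window gave a Tyr1P difference of 0 and 6 members gained at an end for Ser2P in place of 3. With −log10 q of at least 5 the Pol II difference was 0, and members gained were 0 for Pol II ends, 2 for Tyr1P ends and 11 inside for Ser2P. Counting any overlap of the peak interval gave differences of -0.5 for Pol II and 0 for Tyr1P, and 0 gained for both. Leaving out 1 library in turn gave 1 to 2 members gained at an end for Pol II and for Tyr1P, 0 to 1 lost for each, 3 to 12 gained at an end for Ser2P, and 7 to 13 gained and 0 to 1 lost inside for Ser2P. The highest Ser2P values came without Control replicate 1, which leaves the shorter Control list. Members with Tyr1P summits farther upstream were 4 as reported and 7 without either IAA replicate. The lists hold no read totals, and a peak missing from a shallow list is not shown to be absent.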
